A study of Homo sapiens with 42 samples.

Results

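To describe which transcripts depended on the DNA-binding ability of HIF-2α, poly-A RNA-seq libraries of a line carrying HIF-2α were compared with those of a line carrying its DNA-binding mutant R27E. These were 6 of the 42 libraries of the series, 3 with HIF-2α and 3 with R27E, and were chosen by their labels in the first of 2 sequencing batches. Both lines derive from 786-O, an established human clear cell renal carcinoma line that lacks VHL and functional HIF-1α and that keeps its own HIF-2α gene, EPAS1. No hypoxia or drug treatment is named in the labels. The methods describe selection with puromycin and upkeep in selection medium for the transgenic lines, which untransfected cells did not share. Each line carried a stably integrated transgene in which the weak L30 promoter drives HIF-2α with a V5-HaloTag at its N-terminus. The R27E transgene differs from it by 1 amino acid of the DNA-binding domain. Each construct is represented by 1 selected line, so the effect of the construct and that of the line cannot be told apart, and the resident HIF-2α was present in every line. Groups set beside them, with 3 libraries each, were untransfected WT cells, the L30 line of the HIF-2α dimerization mutant (HIF-2αDM), and the L30 lines of HIF-1α and of its DNA-binding mutant HIF-1α R30E, all from the same batch. The genotype label of the HIF-2αDM libraries names HIF-1α, whereas their title and description name HIF-2α. HIF-2α and WT libraries of the second batch shared no library with the first.

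HIF-2α is the oxygen-regulated subunit of a transcription factor that pairs with HIF-1β (ARNT) and binds a short DNA motif, the hypoxia response element, with the core ACGTG or GCGTG. In normal cells oxygen-dependent prolyl hydroxylases mark the α subunits for VHL, which sends them to the proteasome. In clear cell renal carcinoma VHL is lost, HIF-2α accumulates in the presence of oxygen, and genes of blood vessel growth, growth factor signalling, glucose uptake and lipid handling are expressed. HIF-1α binds the same core motif and is known for its hold on glycolytic genes, whereas HIF-2α is regarded as the driver of this cancer.

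Stretches just upstream of the start of genes that the results below turn on are shown with this core, ACGTG read on either strand, in capitals. They come from the RefSeq promoter table for GRCh38.p14, are written 5′ to 3′ on the strand of the gene, and lie within 250 bases before its start. The first 6 belong to genes that were higher with HIF-2α than with R27E, and the last, TGFB2, belongs to a gene that was lower. CPE is at chr4:165378870-165378914 on the plus strand, SLC38A5 at chrX:48470441-48470485 on the minus strand, LOX at chr5:122078277-122078321 on the minus strand, EDN1 at chr6:12287906-12287950, ENO2 at chr12:6914442-6914486, CA9 at chr9:35673890-35673927 and TGFB2 at chr1:218345268-218345312, the last 4 on the plus strand.
CPE: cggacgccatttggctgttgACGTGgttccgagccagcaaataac
SLC38A5: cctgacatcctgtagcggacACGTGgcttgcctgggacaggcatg
LOX: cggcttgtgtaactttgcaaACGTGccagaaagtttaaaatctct
EDN1: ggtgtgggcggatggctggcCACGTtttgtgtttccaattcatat
ENO2: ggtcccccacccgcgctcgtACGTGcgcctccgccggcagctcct
CA9: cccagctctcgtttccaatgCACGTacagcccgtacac
TGFB2: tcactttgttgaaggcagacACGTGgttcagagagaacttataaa
In SLC38A5 and TGFB2 the core is part of the palindrome CACGTG, which 7.26% of windows held. Of the 35116 RefSeq windows of 300 bases, 21.4% held ACGTG on either strand and 48.4% held it or the other core, so such a match alone is common. Only 68% of the genes called higher and 71.3% of those called lower had a window in the table, which makes any comparison of motif shares between them void. The genes shown were picked from those with ACGTG upstream, which many other genes named below lacked. HSD3B7, PLXNA2, TGFA, EGLN3, POU3F3, CASP14, HTRA1, IGFBP5 and COL6A3 held neither core in their windows. Those of APLN, PTHLH, SLC2A1, IGFBP3 and PGF held GCGTG but not ACGTG.

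The 6 libraries held 47720333 to 76846996 counted reads, and at this depth 3 counts, used as the floor of detection, were worth 2.79 to 4.74 normalized counts (counts scaled to the mean effective library of the batch). The methods describe the replicates as biological. In both groups the library numbered 3 stood apart from the others: the chi-square per degree of freedom between libraries was 40.9 and 26.5 for numbers 1 and 2 of HIF-2α and R27E, and 112 to 432 for pairs with number 3. The renal transcription factor PAX8 was at 21115 to 28055 normalized counts with HIF-2α and 21470 to 32302 with R27E, and the kidney cadherin CDH6 at 3793 to 6174 and 3281 to 4927. The summed level of 15 renal lineage genes ran from 196000 to 228000 and from 224000 to 306000, with EMX2 at 0 in both. Of the defining markers of other cells, PTPRC and CD3E of leukocytes, PECAM1 of endothelium, DCN of fibroblasts and HBB of red cells were at 0 in all 6 libraries, and 7 of 8 immune genes were at or under the floor in each group. Other members of these lists were detected. The summed level of 7 endothelial markers was 85.7 to 131 with HIF-2α and 136 to 173 with R27E, most of it ESAM, a junction protein, and none of the 6 tested was called by edgeR or DESeq2, with 1 at an unadjusted p under 0.05. The fibroblast and mural markers are given with LUM below, and the part of these markers in the results was not tested.

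EPAS1 RNA did not differ between the lines by the test used, but was lower with HIF-2α in each pair of same-numbered libraries. EPAS1, counted over resident and introduced transcripts together, was at 40654, 41480 and 51949 normalized counts in the HIF-2α libraries and at 46645, 56220 and 67163 in the R27E libraries, against 12563 to 16596 in WT cells. Both lines lay far above WT and overlapped each other, with a log2 difference of -0.34 ± 0.20 (SE; edgeR adjusted p = 0.36) and an adjusted p of 0.14 when same-numbered libraries were blocked. ARNT, the common partner, did not differ detectably either, with 1344 to 1916 and 995 to 1840 normalized counts (log2 0.03, edgeR adjusted p = 0.97). HIF1A was at 667, 846 and 1216 with HIF-2α and at 188, 173 and 276 with R27E. The HIF-2α libraries all lay above those of R27E and of WT (231 to 257), and HIF1A rose by 2.10 ± 0.24 on the log2 scale (edgeR adjusted p = 5.2e-07).

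With HIF-2α, 490 of 23410 tested genes were called higher than with R27E (2.09%) and 359 were called lower (1.53%), at an edgeR adjusted p of at most 0.01 and at least a 2-fold difference. The higher genes had the wider range: 154 of them differed at least 8-fold and 95 at least 16-fold, against 45 and 15 of the lower genes. Of the higher genes 442 were protein coding and 35 long non-coding, and of the lower genes 329 and 24. All 490 higher and 356 of the 359 lower genes had HIF-2α libraries that were all on 1 side of the R27E libraries, as did 10% and 10.8% of all tested genes. The median log2 difference over all tested genes was -0.088. In bulk RNA, fewer cells that express a gene and less of its RNA in each cell cannot be told apart.

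**Figure D1:**
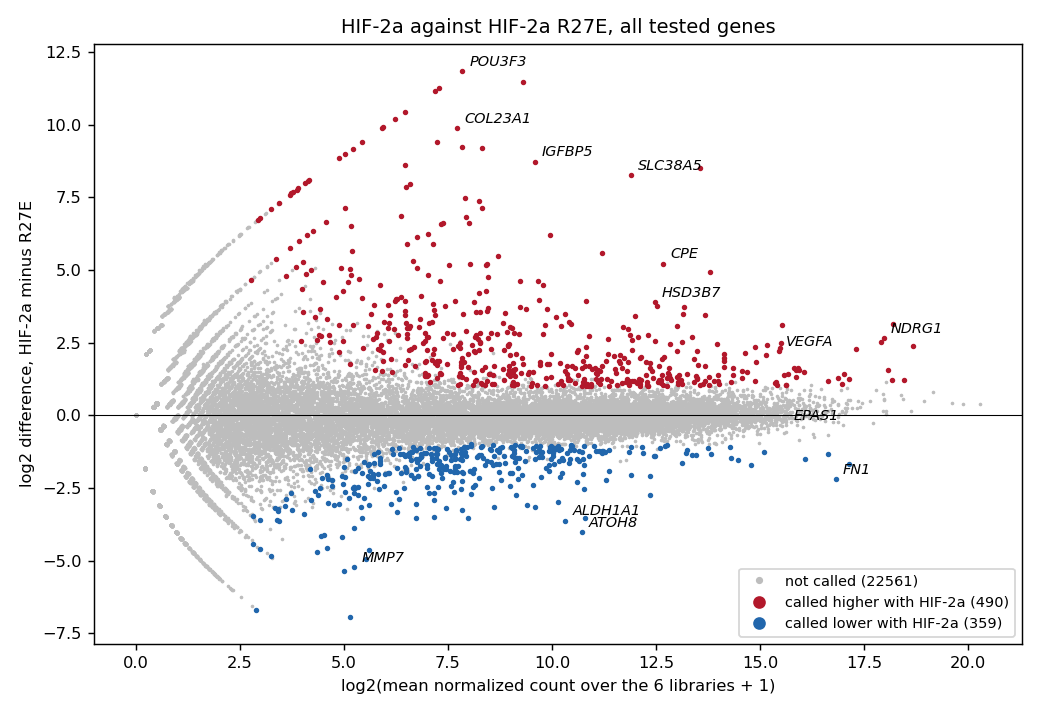
Log2 difference between HIF-2α and R27E (y axis) against the log2 of the mean normalized count over the 6 libraries plus 1 (x axis), 1 point per tested gene; red points were called higher with HIF-2α (490), blue points lower (359), grey points neither. EPAS1, at the right near 0, was not called, the higher genes extend to differences above 10 and few lower genes pass -5.

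Among genes that the study itself examined by RNA-seq, TGFA, the EGF receptor ligand of renal carcinoma, was at 61067, 64782 and 49582 with HIF-2α and at 12801, 16000 and 12717 with R27E (log2 2.08 ± 0.17, edgeR adjusted p = 1.5e-09). PLXNA2, a semaphorin receptor, was at 5539, 6273 and 7389 against 706, 904 and 851 (log2 2.96 ± 0.25, edgeR adjusted p = 2.8e-09). HSD3B7, an enzyme of bile acid synthesis, was at 13328, 8972 and 9665 against 804, 824 and 519 (log2 3.90 ± 0.20, edgeR adjusted p = 4.3e-13). In all of these every HIF-2α library lay at least 3-fold above every R27E library. CPE, the carboxypeptidase that trims prohormones in secretory granules, was at 15870, 11260 and 11094 with HIF-2α and at only 287, 332 and 406 with R27E (log2 5.22 ± 0.43, edgeR adjusted p = 2.3e-09). Others of these genes were not called: PGK1, a glycolytic enzyme, was at 15655 to 30278 and 12164 to 34314, PPFIA4 at 146 to 308 and 90.5 to 169, and GPRC5C at 345 to 523 and 163 to 351 (edgeR adjusted p = 0.80, 0.37 and 0.52). The libraries overlapped in each. PTPRN was at or near the floor in both groups and is given no fold.

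**Figure D2:**
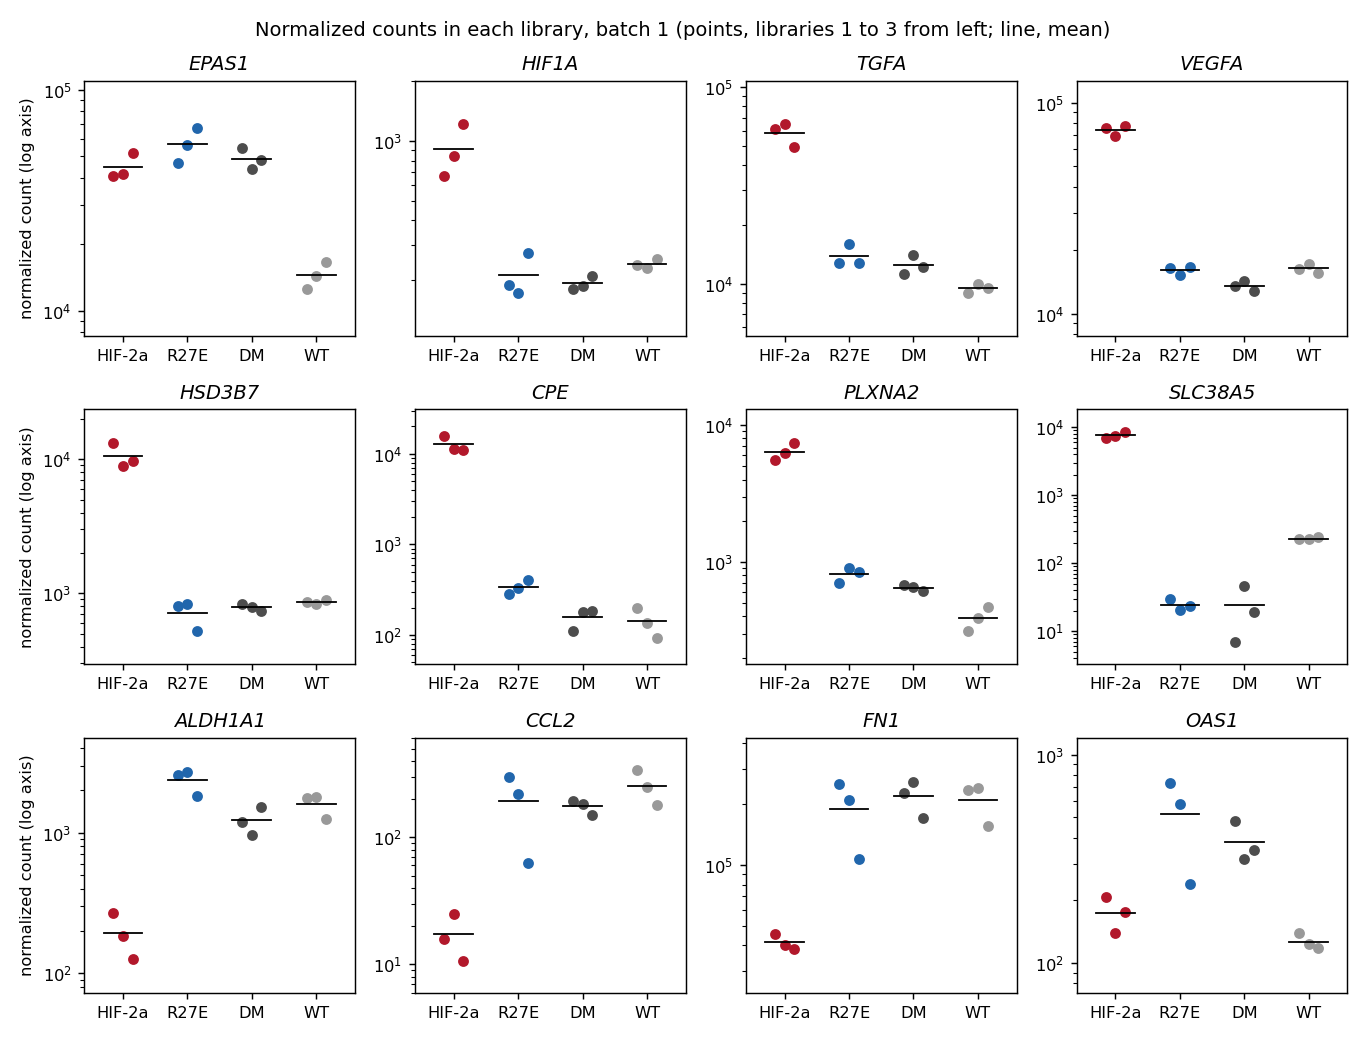
Normalized counts (log axis) of 12 genes in each library of HIF-2α, R27E, HIF-2αDM (DM) and WT of the first batch, with libraries 1 to 3 from left to right and a line at the mean. EPAS1 overlaps among the 3 transgenic lines, TGFA, VEGFA, HSD3B7, CPE and PLXNA2 are highest with HIF-2α, SLC38A5 is lower with R27E than in WT, and ALDH1A1, CCL2 and FN1 are low with HIF-2α; OAS1 is highest with R27E.

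Some genes were at or near 0 with R27E: 23 of the higher genes had no count in any R27E library and 22 had 1 to 3 counts in all. POU3F3, a POU-domain transcription factor of the nervous system (hg38 chr2:104853287-104858574), was at 303, 434 and 633 normalized counts with HIF-2α and at 0 in each R27E library, at least 159-fold higher by a floor of 3 counts in each library. LHX5, a LIM-homeobox factor of the forebrain (chr12:113462033-113472280), was at 986, 1126 and 1678 against 0, 0 and 0.981, a ratio of 4129 with a 95% counting interval of 740.5 to 163100. CASP14, a caspase of the maturing epidermis, was at 371, 229 and 266 against 0 in each, at least 100-fold higher. The groups were thus apart by orders of magnitude, and the ratios are limited by counting at the R27E end. LHX5-AS1, on the opposite strand of LHX5, was at 155 to 194 and 0, but reads were counted without strand and the transcripts overlap, so they cannot be told apart, and under DESeq2 its adjusted p was 0.35. RTN4RL1, a Nogo receptor relative, PRKCZ, an atypical protein kinase C, and RNASE1, a secreted ribonuclease, were also at 0 with R27E and at least 107, 41.2 and 42 times higher with HIF-2α. COL23A1, a membrane-bound collagen, was at 390, 352 and 510 against 0.928, 0 and 0 (ratio 1344, interval 241 to 53130). MLPH, which tethers melanosomes to a myosin motor, was at 321, 419 and 629 against 0.928, 0.963 and 0 (ratio 751, interval 208 to 6212), and AUTS2 at 210, 236 and 450 against 0, 0 and 0.981 (ratio 997, interval 178 to 39440). SYN3, a synaptic vesicle protein, was at 547 to 689 against 0 to 1.93, and TIMP3, a metalloprotease inhibitor lying inside SYN3 on the other strand, at 164 to 189 against 0 to 0.963, which unstranded counting cannot fully separate.

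Small p-values at 500 or more mean normalized counts were also found for APLN, PTHLH, HTRA1 and SLC38A5. APLN, the peptide apelin, was at 7637, 6913 and 7776 with HIF-2α and at 659, 707 and 720 with R27E (log2 3.42 ± 0.16, edgeR adjusted p = 2.2e-13). PTHLH, the parathyroid hormone-related protein, was at 13322, 10040 and 9464 against 863, 787 and 793 (log2 3.75 ± 0.20). HTRA1, a secreted serine protease, was at 32020, 21744 and 18262 against 2203, 2365 and 1985 (log2 3.46 ± 0.21). In each the R27E libraries lay close together, far below the lowest HIF-2α library. SLC38A5, a glutamine transporter, was at 6858, 7430 and 8490 against 29.7, 20.2 and 23.5 (log2 8.27 ± 0.44, edgeR adjusted p = 7.6e-13). WT cells, at 225 to 240, lay between the groups.

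Of 19 genes listed as HIF-2 targets in renal carcinoma, 16 were called higher and none lower, beside 2.09% and 1.53% of all tested genes. Their median log2 difference was 2.37, beside -0.088 for all tested genes. The list was written with earlier results of these data known. It holds TGFA, PLXNA2 and HSD3B7, which the study examined by RNA-seq, so the count is a description only. Between HIF-1α and HIF-1α R30E, 9 of the 19 were called higher and none lower, beside 1.42% and 0.329% of all genes. The difference between the 2 pairs was called for 7 of them, all towards HIF-2α. VEGFA, the vascular growth factor, was at 75815, 69382 and 77100 with HIF-2α and at 16418, 15168 and 16704 with R27E (log2 2.20 ± 0.14, edgeR adjusted p = 1.6e-11). CCND1, the G1 cyclin D1, was at 88431, 93921 and 122035 against 28848, 33122 and 46440 (log2 1.49 ± 0.22). In these abundant transcripts no R27E library reached the HIF-2α libraries. EPO, at low counts, had the largest difference of the list. That of HSD3B7, at the higher counts given above, was close to it. EPO, the red cell hormone, was at 191, 137 and 167 against 4.64, 18.3 and 8.83 (log2 3.95 ± 0.68), and ANGPTL4, a lipase inhibitor, at 1654, 2309 and 2034 against 166, 218 and 194 (log2 3.37 ± 0.26). NDRG1, a hypoxia-responsive stress protein, was at 513534, 395054 and 431152 against 56287, 71516 and 84610 (log2 2.66 ± 0.24). Its R27E libraries also lay above those of WT (26438 to 31864). EGLN3, a prolyl hydroxylase that feeds back on HIF, was at 59982 to 64562 against 7611 to 17810 (log2 2.40 ± 0.25). CXCR4, a chemokine receptor, was at 147, 85.7 and 55.3 against 3.71, 15.4 and 0.981 (log2 3.81 ± 0.79, edgeR adjusted p = 0.002). Its adjusted p rose to 0.017 without HIF-2α library 1 and to 0.019 without R27E library 1. CITED2, STC2 and PLIN2 were not called (log2 0.38, 0.75 and 0.45).

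Glucose metabolism was touched in part. Of 24 genes of glucose uptake and glycolysis, 7 were called higher and none lower, beside 2.09% and 1.53% of all tested genes. Their median log2 difference was 0.49, beside -0.088 for all tested genes. SLC2A1, the glucose transporter GLUT1, was at 421897, 403746 and 417903 with HIF-2α and at 122487, 140294 and 163270 with R27E (log2 1.55 ± 0.17). ENO2, an enolase, was at 12835, 9089 and 9994 against 3200, 2916 and 1901 (log2 1.99 ± 0.22), and HK2, a hexokinase, at 9464 to 11393 against 3819 to 4756 (log2 1.28 ± 0.19). Their libraries did not overlap. Some other calls of the list depended on single libraries. PFKL was lost without HIF-2α library 3 or R27E library 1 or 2 (log2 0.90 to 1.34). PFKP was lost without HIF-2α library 3, and PFKFB4 without HIF-2α library 1. LDHA, which makes lactate, was at 81004, 73735 and 47603 against 38706, 42720 and 26158 and was not called (log2 0.91, edgeR adjusted p = 0.013), nor was GAPDH (log2 0.56). Of 7 genes of the BNIP3 family and mitophagy, BNIP3L alone was called, at 2710 to 3458 against 892 to 1418 (log2 1.41 ± 0.16), while BNIP3 was at 4167 to 4357 and 4059 to 4731 (log2 -0.04).

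Vascular and growth factor genes moved both ways. Among 15 vascular growth factors and receptors 7 were called higher and 2 lower, beside 2.09% and 1.53% of all tested genes. PGF, a VEGF relative, was at 3127, 3583 and 3476 with HIF-2α and at 113, 196 and 361 with R27E (log2 3.93 ± 0.32). EDN1, the vasoconstrictor endothelin, was at 2962, 3052 and 3050 against 607, 550 and 602 (log2 2.36 ± 0.22), and PDGFB at 29127 to 33126 against 10194 to 13918 (log2 1.40 ± 0.17). Both lower calls of this list depended on single libraries: PDGFD was lost without HIF-2α library 1 or 3 or R27E library 2 or 3 (edgeR adjusted p = 0.012 to 0.029), and PDGFRB without HIF-2α library 1 or 2 or R27E library 1 (0.011 to 0.033). Among the higher calls VEGFB was lost without HIF-2α library 2 or 3 or R27E library 1 or 2. Its log2 difference ran from 0.83 to 1.34 without single libraries. Of 10 genes of the EGF receptor family, the receptor EGFR rose to 40613, 38789 and 37436 from 13485, 14988 and 13230 (log2 1.49 ± 0.16) beside its ligand TGFA. Other ligands fell: AREG was at 75.8, 142 and 118 against 635, 595 and 694 (log2 -2.51 ± 0.22), and EREG at 1587, 2281 and 2096 against 7368, 8953 and 9065 (log2 -2.09 ± 0.20). Ligands of 1 receptor thus lay on opposite sides, with no overlap between groups in any of these genes.

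Genes of the extracellular matrix were called in both directions as well, beside 2.09% of all tested genes called higher and 1.53% lower. Of 11 collagen hydroxylases and lysyl oxidases 3 were called higher and none lower. LOX, which cross-links collagen, was at 5530, 6211 and 6047 with HIF-2α and at 595, 753 and 833 with R27E (log2 3.03 ± 0.21), and P4HA1, a collagen prolyl hydroxylase, at 4289 to 6588 against 2308 to 2558 (log2 1.19 ± 0.18). Of 15 collagen chains, COL6A3 was at 87920, 77369 and 89225 against 9118, 10484 and 9941 (log2 3.11 ± 0.20), and COL5A1 and COL23A1 were also called higher. The basement membrane chain COL4A1 was at 27980, 31159 and 49170 against 88763, 77526 and 144094 (log2 -1.52 ± 0.27). COL4A2, its neighbour read from a shared promoter region, was called lower too (log2 -1.32 ± 0.30), but not without HIF-2α library 1 or 2 or R27E library 3 (edgeR adjusted p = 0.042, 0.033 and 0.044). Of 13 matrix proteases and inhibitors 4 were called higher, among them MMP2, a gelatinase, at 34290, 22985 and 28750 against 7101, 7744 and 6932 (log2 1.98 ± 0.25), and its inhibitor TIMP1 at 15421 to 17490 against 6090 to 7620 (log2 1.29 ± 0.14). MMP7, matrilysin, was the lower call of the list, at 3.16, 1.48 and 1.06 against 46.4, 80.9 and 88.3 (log2 -5.23 ± 1.10), and was lost without HIF-2α library 2 or 3 (edgeR adjusted p = 0.015 and 0.020). FN1, fibronectin, was at 45815, 40212 and 38431 against 251626, 210623 and 107685 (log2 -2.20 ± 0.33, edgeR adjusted p = 3.6e-05). Every HIF-2α library lay below every R27E library, and WT (155991 to 239375) was near R27E.

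Other signalling groups were called for some members, beside 2.09% of all tested genes called higher and 1.53% lower. Of 9 IGF-binding proteins and IGF genes 3 were called higher and none lower: IGFBP3 was at 597513, 527262 and 499507 against 64180, 62710 and 56917 (log2 3.14 ± 0.21), IGFBP1 at 3033 to 3294 against 759 to 1335 (log2 1.64 ± 0.19), and IGFBP5 at 1662, 1325 and 1613 against 5.57, 0.963 and 3.92 (log2 8.72 ± 0.66). Of 16 TGF-β and activin genes 4 were called higher, of which TGFB1 was lost without R27E library 1 or 2. LTBP1, which anchors latent TGF-β, was at 704, 628 and 615 against 61.3, 54.9 and 33.3 (log2 3.70 ± 0.31), and INHBB, an activin subunit, at 28767 to 44464 against 10551 to 15772 (log2 1.54 ± 0.25). TGFB2 was lower, at 3913, 5734 and 8051 against 11520, 11718 and 17463 (log2 -1.20 ± 0.25), a call that was lost without HIF-2α library 1 or 2 or R27E library 3 (edgeR adjusted p = 0.023, 0.012 and 0.014). Of 25 axon guidance genes 5 were called higher and 4 lower, the latter 2 without HIF-2α library 1 or R27E library 1. Among the higher calls SEMA7A kept its call in only 1 of 6 fits with a library left out (log2 0.92 to 1.33). NTN1, netrin, was at 618, 849 and 1271 against 75.2, 93.4 and 161 (log2 3.06 ± 0.34), SEMA6A at 14134 to 16841 against 1986 to 3947 (log2 2.51 ± 0.29), and SEMA3A, a repulsive cue, at 17.4, 32.5 and 12.8 against 125, 153 and 107 (log2 -2.64 ± 0.38). ACKR3, a scavenging chemokine receptor, was at 38059, 25236 and 20173 against 1154, 1025 and 581 (log2 4.92 ± 0.33), while CCL2, the monocyte chemokine, was at 15.8, 25.1 and 10.6 against 301, 221 and 62.8 (log2 -3.52 ± 0.50). The carbonic anhydrase CA12, which acidifies the cell surface, was at 40566 to 61735 against 7537 to 11529 (log2 2.34 ± 0.25) and the cytosolic CA2 at 375 to 528 against 1815 to 1978 (log2 -2.13 ± 0.24). CA9 was at 41.1, 5.91 and 18.1 against 0.928, 0.963 and 0 (ratio 32.7, interval 8.57 to 278), low in both groups.

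**Figure D3:**
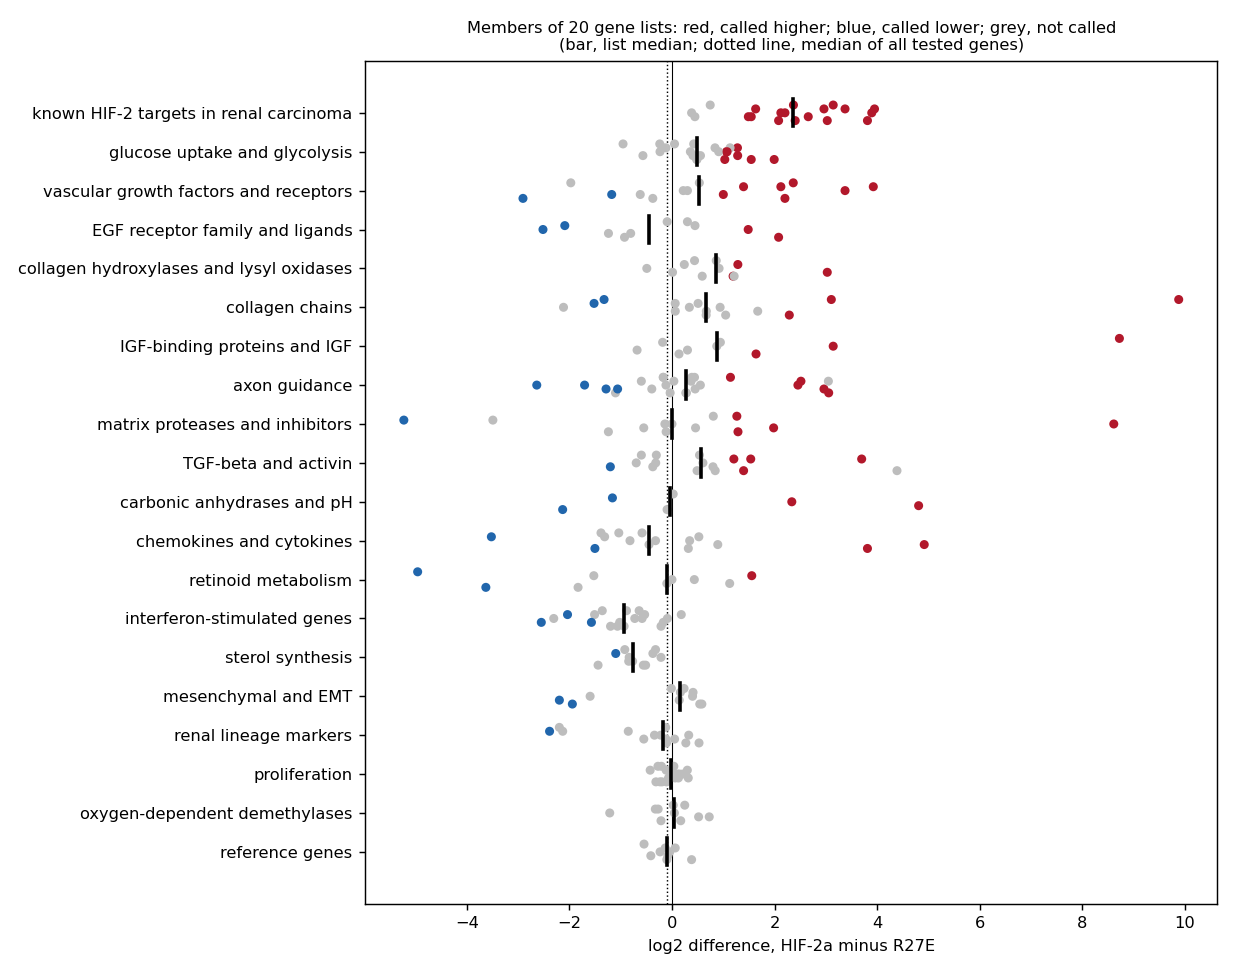
Log2 difference between HIF-2α and R27E (x axis) of the tested members of 20 gene lists (rows), red where called higher, blue where called lower and grey where not called; black bars are list medians and the dotted line is the median of all tested genes, -0.088. The known HIF-2 targets sit furthest to the right with a median of 2.37, interferon-stimulated genes lie mostly below 0 with a median of -0.933, and the proliferation and reference genes lie around 0.

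Among the genes that were lower with HIF-2α, large differences at 50 or more mean normalized counts were seen in ATOH8, ALDH1A1 and S1PR1. ATOH8, a basic helix-loop-helix factor, was at 169, 165 and 247 with HIF-2α and at 2074, 2068 and 5362 with R27E (log2 -4.02 ± 0.43, edgeR adjusted p = 2e-07). ALDH1A1, which makes retinoic acid, was at 267, 185 and 126 against 2572, 2696 and 1835 (log2 -3.63 ± 0.33, edgeR adjusted p = 1e-08). S1PR1, the receptor for sphingosine-1-phosphate, was at 330, 235 and 274 against 3128, 3271 and 3334 (log2 -3.54 ± 0.18, edgeR adjusted p = 4.3e-13). In each the groups were separated at least 6-fold, and WT cells were on the side of R27E. Of 9 retinoid genes, ALDH1A1 among them, 2 were called lower and 1, STRA6, higher (median log2 -0.10). Of all tested genes 1.53% were called lower and 2.09% higher. The call of STRA6 was lost without HIF-2α library 2 or 3 or R27E library 1 or 2. KCNJ16, a potassium channel of the kidney, was at 31.9 to 53.2 against 377 to 538 (log2 -3.52 ± 0.42), and MAL2, a protein of apical transport, at 93.2 to 169 against 1125 to 1329 (log2 -3.10 ± 0.21). SAA1, an acute-phase protein, was at 127 to 191 against 650 to 2113 (log2 -3.17 ± 0.42), CTSS, cathepsin S, at 38.3 to 122 against 415 to 860 (log2 -3.14 ± 0.34), CD74, the invariant chain, at 273 to 358 against 1193 to 1663 (log2 -2.14 ± 0.17), and GBP2, an interferon-induced GTPase, at 17.7 to 33.2 against 167 to 331 (log2 -3.51 ± 0.39). ALOX5AP, needed to make leukotrienes, was at 20.7 to 61.6 against 160 to 447 (log2 -3.17 ± 0.45). None of these overlapped between groups, but for the genes named for their large differences this was a condition of being named. Of 15 chemokines and cytokines 2 were called higher, ACKR3 and CXCR4, and 2 lower, CCL2 and CXCL5. CLDN2, a tight junction claudin, was at 47.4, 59.1 and 23.4 against 414, 659 and 156 (log2 -3.27 ± 0.70), and its edgeR adjusted p of 0.0024 rose to 0.014 and 0.024 without HIF-2α library 1 or 3 and to 0.020 without R27E library 2. In AIF1L and L1CAM, an adhesion molecule, R27E itself lay above WT: AIF1L was at 193 to 294 with HIF-2α, 1868 to 2232 with R27E and 403 to 648 in WT, and L1CAM at 1284 to 1427, 6911 to 12339 and 3024 to 4535.

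Lists that leaned to the lower side were called for few members, beside 2.09% of all tested genes called higher and 1.53% lower. Of 19 interferon-stimulated genes none was called higher and 3 were called lower, with 18 of 19 below 0 and a median of -0.933. The count was 6 with the replicate number as a block, a fit that called 2.7% of all genes higher and 2.1% lower, and also 6 without R27E library 3, and 1 without HIF-2α library 2. In the pair of HIF-1α and HIF-1α R30E, which shares none of these libraries, 5 of the 19 were called lower and none higher, beside 0.329% and 1.42% of all genes, with a median of -0.943, and none differed between the pairs. USP18, a brake on interferon signalling, was at 330, 196 and 205 against 1207, 1264 and 524 (log2 -2.04 ± 0.31). OAS1, an antiviral enzyme, was at 208, 139 and 175 with HIF-2α and at 732, 580 and 240 with R27E (log2 -1.57 ± 0.36, edgeR adjusted p = 0.0047), and its adjusted p lay between 0.012 and 0.063 without any 1 of HIF-2α libraries 1 to 3 or R27E libraries 1 and 2. WT cells, at 118 to 139, lay at or below the HIF-2α libraries. Of 11 genes of sterol synthesis all had a difference below 0, with a median of -0.768, and DHCR7, the last enzyme of the pathway, was called, at 10665 to 15195 against 26559 to 28239 (log2 -1.10 ± 0.17). Without HIF-2α library 2 its log2 difference was -0.98, under 2-fold. SCD, which desaturates fatty acids, was at 19414, 10676 and 9727 against 42828, 44694 and 43399 (log2 -1.72 ± 0.30), the lower call of 15 genes of lipid handling; with the replicate block 1 gene was called higher and 2 lower. Of 14 renal lineage genes VCAM1, an adhesion molecule, was called, at 209 to 264 against 846 to 1823 (log2 -2.39 ± 0.29), and 2 were called lower with the block. Of 11 mesenchymal genes TAGLN was lower beside FN1, at 143 to 194 against 617 to 753 (log2 -1.94 ± 0.26). LUM, a matrix proteoglycan, was at 0, 2.95 and 5.31 against 89.1, 53.9 and 27.5 (log2 -4.19 ± 0.73), and PDGFRB was the other lower call of the 7 fibroblast and mural markers tested, none of which was called higher (median -0.733). The summed level of the 8 listed was 1910 to 2840 with HIF-2α and 1200 to 1790 with R27E, which COL1A1 set (1463 to 2470 against 592 to 1398; log2 1.05 ± 0.31, edgeR adjusted p = 0.031, and 9.2e-05 with the replicate block). Without COL1A1 the sum was 529, 355 and 372 against 630, 611 and 387.

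No member was called among 18 proliferation genes (median log2 -0.016), 9 reference genes (-0.10), 11 Notch genes, 10 of iron and heme, 10 oxygen-dependent demethylases, 7 mitochondrial hypoxia genes and 7 adenosine genes by edgeR without the block. With it ENTPD1, which breaks down extracellular ATP, was called lower among the adenosine genes (log2 -1.67, edgeR adjusted p = 0.0075). At an unadjusted p under 0.05 there were 1, 1, 3, 2, 1, 2 and 4 members of these lists in the same order, and DESeq2 called 1 adenosine gene higher and 1 lower and none of the other lists. Leaving out single libraries gave 1 adenosine call without HIF-2α library 1, R27E library 2 or R27E library 3. MKI67, a marker of cycling cells, was at 7425, 7681 and 8348 with HIF-2α and at 14511, 8758 and 4333 with R27E. Its R27E libraries bracketed the HIF-2α libraries.

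Next, R27E was set beside the other lines that share its libraries in these comparisons. Against HIF-2αDM, which carries an α subunit unable to pair with HIF-1β, 5 genes were higher with R27E (0.0214%) and 1 lower (0.00427%). NDRG1 was at 56287, 71516 and 84610 with R27E and at 20472, 21608 and 18501 with HIF-2αDM (log2 1.81, edgeR adjusted p = 0.00089). F3, tissue factor, was at 3670 to 4625 against 1677 to 2089, and COL5A2 at 2417 to 4167 against 917 to 1260. KCNMB4 and TRABD2A were the others. For KCNMB4 (log2 -0.29), TRABD2A (-0.12) and COL5A2 (0.06) the HIF-2α and R27E libraries overlapped, so these were high in both lines. CHST1, a sulfotransferase, was lower with R27E, at 24.1, 18.3 and 51 against 160, 174 and 174, while HIF-2α was at 430 to 719. These 6 calls depended on single libraries, with 0 to 5 genes called when 1 library was left out: edgeR called 0 without HIF-2αDM library 1 or 3, where 712 and 1227 genes had an unadjusted p under 0.05, and DESeq2 with all libraries called 23. Against WT, 105 genes were higher with R27E (0.449%) and 11 lower (0.047%), and with the replicate block 213 in all (0.91%). The 11 lower genes were SLC38A5, LTBP1, TRIM9, LIPG, MLPH, INHBE, SGPP2, MTSS1, KRT79, POU3F3 and MAGEA3. Leaving out single libraries gave 4 to 8 lower genes, with 4 without WT library 2 or 3, 5 and 6 without R27E library 2 or 3 and 7 without WT library 1. The higher genes then numbered 54 to 112, fewest without WT library 1 or 2 (54 and 58), and with only R27E and WT fitted 4 were called higher and 1 lower. POU3F3 was at 3.3, 12.6 and 16.2 in WT and 0 with R27E, MLPH at 25.6, 41.6 and 33 and at most 0.963, and MAGEA3, a cancer-testis antigen, at 28.9, 33.9 and 16.9 and at most 3.85. Each of these 3 was at 303 or more with HIF-2α.

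To see whether the genes were particular to the HIF-2α pair, the difference was compared with that between HIF-1α and HIF-1α R30E, which shares none of the 6 libraries but was fitted in the same model. In the HIF-1α pair 333 genes were called higher (1.42%) and 77 lower (0.329%). Of the 490 genes higher with HIF-2α, 176 were also higher with HIF-1α, which is 35.9% of the 490 and 52.9% of the 333. Of the 359 lower genes 27 were also lower, 7.52% of the 359 and 35.1% of the 77. Across the 849 called genes the 2 differences had a Pearson correlation of 0.724, and across all 23410 of 0.221; genes are not independent replicates, and the 4 groups share a batch and a fit. The difference between the differences was itself called for 74 genes above (0.316%) and 110 below (0.47%). With RLE size factors these were 92 and 99, and with only the 4 groups fitted 48 and 35, so the balance of directions depended on the fit. Of the 490 higher genes 65 were called above the HIF-1α pair and 5 below it. Both PLXNA2 (log2 3.50 ± 0.34, edgeR adjusted p = 3.7e-07) and HSD3B7 (3.43 ± 0.26, 6.6e-09) were above: PLXNA2 was at 654 to 1129 with HIF-1α and 1016 to 1587 with R30E, and HSD3B7 at 700 to 792 and 530 to 592. CPE was at 231 to 751 with HIF-1α and 78.3 to 247 with R30E, which overlapped. Its difference was larger in the HIF-2α pair (log2 3.45 ± 0.54, edgeR adjusted p = 0.00038). LHX5 was at 0 to 0.911 and 0 to 1 in the HIF-1α pair, and LY6K at 16.1 to 23.6 and 18.1 to 33.7, against 401, 612 and 499 with HIF-2α and 6.5 to 25.5 with R27E. VEGFA (log2 0.22), SLC38A5 (0.20), LOX (0.16), ADM (0.04) and APLN (-0.09) were called higher in both pairs, with differences that did not pass the test between pairs. On the other side ENO2 and PFKFB4, a regulator of glycolysis, rose in both pairs but by less with HIF-2α (log2 -1.51 and -2.49), PFKFB4 by 0.91 against R27E without HIF-2α library 1, under 2-fold. ALDOC, an aldolase, was at 273, 121 and 141 with HIF-2α and 285 to 382 with R27E, but at 5473, 4868 and 2748 with HIF-1α and 120 to 210 with R30E (log2 -5.77 ± 0.43, edgeR adjusted p = 6.6e-09). SPRY1, an inhibitor of receptor signalling, was at 5.91 to 14.2 and 7.85 to 11.1 in the HIF-2α pair and at 233 to 297 and 4.02 to 8.1 in the HIF-1α pair. CA9 reached 3872 to 4602 with HIF-1α, where HIF-2α was at 5.91 to 41.1, but its difference between the pairs was not called. Of 24 glucose genes 12 were called higher in the HIF-1α pair and 5 differed between pairs, all of them towards HIF-1α.

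**Figure D4:**
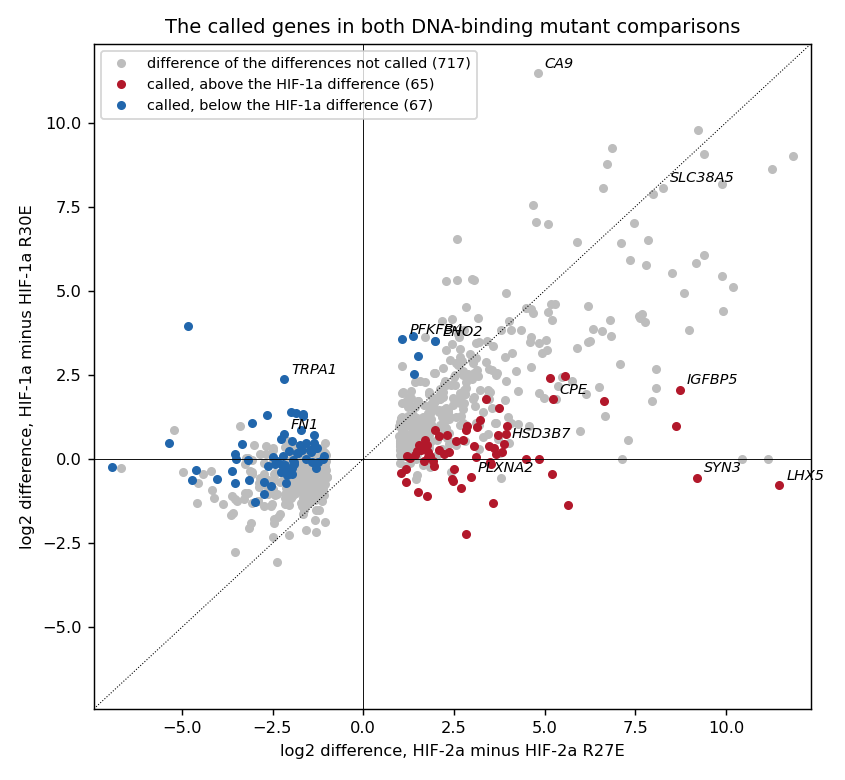
Log2 difference between HIF-1α and HIF-1α R30E (y axis) against that between HIF-2α and HIF-2α R27E (x axis) for the 849 genes called in the latter, coloured where the difference between the 2 was itself called (red above, 65; blue below, 67; grey neither, 717). PLXNA2, HSD3B7, LHX5 and SYN3 lie near the horizontal zero line, and SLC38A5 lies close to the diagonal.

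The called genes were then followed into the second batch, where HIF-2α and WT libraries were prepared with another extraction and kit and compared with each other. There 1566 genes were called higher (5.45% of 28724) and 611 lower (2.13%). Among genes tested in both batches 6.62% were called higher and 2.65% lower there. Of the 490 genes higher against R27E, 433 were called higher there (88.4%), which is 28.5% of the 1517 genes called higher there that were tested in both, and none was called lower. TRIM9 and KY were the ones with the other sign (log2 -0.60 and -0.22), and their calls against R27E were lost without HIF-2α library 3 and without HIF-2α library 1 or R27E library 2 (edgeR adjusted p = 0.012, 0.011 and 0.017). Of the 359 lower genes 231 were called lower there (64.3%, and 38% of 608) and 5 were called higher. Across the 849 genes the Pearson correlation was 0.892, and across 22915 genes tested in both 0.447, as a description. CPE was at 24107 to 28968 in the second batch with HIF-2α and 183 to 236 in WT, LHX5 at 427 to 447 and 0 to 2, and IGFBP5 at 1174 to 1628 and 0.963 to 8.89, each on that batch's own scale. The 5 genes with opposite calls were OAS1, GDF15, IFI44L, PIK3AP1 and ID4. Against R27E the call of IFI44L was lost without HIF-2α library 2 (edgeR adjusted p = 0.011) and that of ID4 without HIF-2α library 1 or 2 or R27E library 3 (0.012, 0.012 and 0.016). GDF15, a stress cytokine, was at 510, 498 and 522 with HIF-2α, 1185, 1387 and 2269 with R27E and 311 to 405 in WT of the first batch, and PIK3AP1 at 22.2 to 35.1, 67.7 to 101 and 14.8 to 17.3. In these 2 genes R27E was highest and HIF-2α lay between R27E and WT. Interferon-stimulated genes as a list, with 0 higher and 3 lower of 19 against R27E, had 11 higher and 1 lower of 19 against WT of the second batch. Within the first batch 884 genes were called higher with HIF-2α than in WT (3.78%) and 455 lower (1.94%). Of the 19, 1 was called higher there and 1 lower (median log2 0.286). With R27E 6 of the 19 were called higher than in WT and none lower, beside 0.449% and 0.047% of all genes. With only R27E and WT fitted, 4 of 23183 genes were called higher. None of the 5 genes with opposite calls was called between HIF-2α and WT of the first batch (edgeR adjusted p = 0.054 to 0.46). The log2 difference was 0.46 for OAS1, 0.48 for GDF15 and 0.85 for PIK3AP1. It was -0.79 for IFI44L and -0.59 for ID4, the opposite sign to the second batch. The 2 batches differ in extraction and kit, and the difference between their WT comparisons was not tested.

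**Figure D5:**
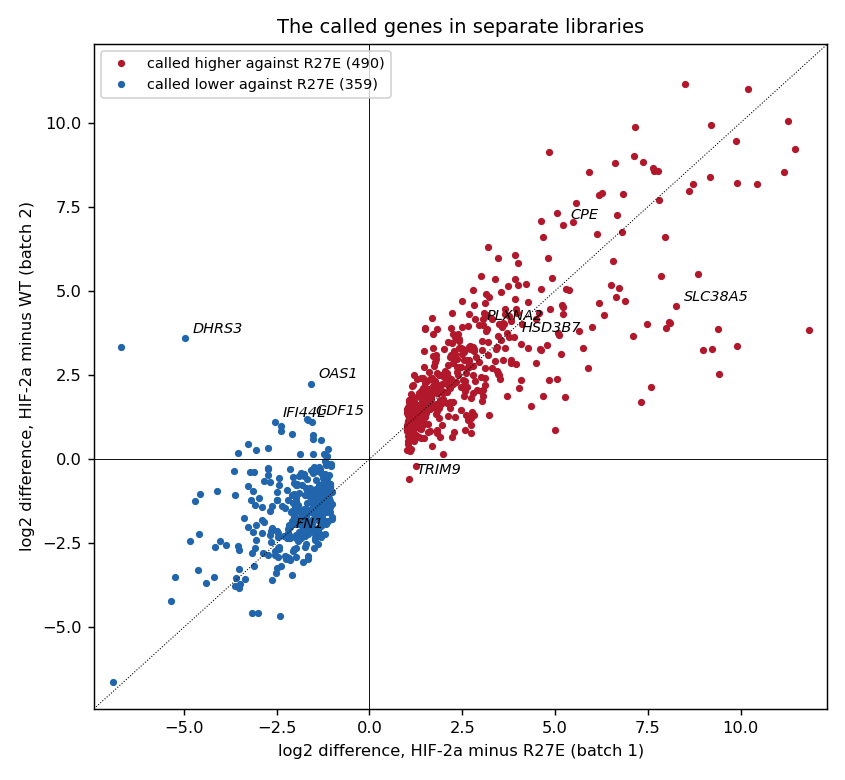
Log2 difference between HIF-2α and WT in the second batch (y axis) against that between HIF-2α and R27E in the first (x axis) for the 849 genes called in the latter (red, 490 higher; blue, 359 lower); the dotted line marks equal values. Nearly all red points lie above 0 (488 of 490), and 337 of 359 blue points lie below it, with OAS1, GDF15, IFI44L and DHRS3 above.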

How the data were processed

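Poly-A RNA-seq counts of 786-O lines were used, 27 libraries of the first batch and 15 of the second. The authors deposited raw read counts per gene, without normalization. STAR alignments to hg38 were limited to uniquely placed reads, and HTSeq assigned these to GENCODE genes (union mode, strand ignored); the submitters' processing notes name STAR 2.7, HTSeq 0.11.1 and SAMtools 1.9. Unique mapping and unstranded counting leave counts of paralogs, pseudogenes and overlapping or antisense genes uncertain, and resident and introduced EPAS1 reads fall on 1 gene. RNA of the first batch was extracted with a column kit and that of the second with TRIzol. Synthetic spike-ins that the first batch received have no rows in the count files and played no role.

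The software was edgeR 4.0.16 and DESeq2 1.42.0, with limma 3.58.1, under R 4.3.3. A gene was tested if its normalized count averaged 0.5 or more (23410 and 28724 genes in the 2 batches). Libraries were scaled by TMM, with factors of 0.822 to 0.924 for HIF-2α and 0.917 to 1.075 for R27E. All 9 groups of the first batch were fitted in 1 edgeR quasi-likelihood model, and the second batch was fitted separately. The SE after each ± is an approximation, the absolute log2 difference divided by the square root of the F statistic of its edgeR test. Genes were called at a Benjamini-Hochberg adjusted p of at most 0.01 and at least a 2-fold difference, two-sided, after the thresholds in the study's methods. Fold changes against a group at 0 use a floor of 3 counts in each library of that group. Ratios against 1 to 3 counts over a group carry 95% exact intervals, and are not on a common scale with the floor-based folds. Floors and intervals cover counting error only. Total counts of the 27 libraries ran from 42377599 to 101186554, and of the second batch from 76366799 to 109642159. The fit was also run on simulated counts of independent libraries. These had no pairs and no library that stood apart, so they cannot show how the fit handles those features of the data.

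Members and lists were chosen with earlier results of these data known. Named genes were those of the study's RNA-seq results and HIF subunits, the 12 largest differences in each direction at a mean of at least 50 normalized counts without overlap between libraries, the 6 smallest p-values in each direction at 500 or more, the 4 genes in each direction whose difference departed most from that of the HIF-1α pair, and called list members; genes named beside small counts were chosen after their values were seen. Gene coordinates are those of GENCODE release 44 on hg38.

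Same-numbered HIF-2α and R27E libraries deviated together from their group means, with correlations of 0.19, 0.15 and 0.45 across genes for numbers 1 to 3. Those of R27E and WT did so too (0.28, 0.142 and 0.496). With a cutoff of 0.1 for the lowest correlation, these numbers were taken as pairs. The pairing comes from this check and not from a label. The fit without the replicate block is the one reported, so it does not use this pairing. With the block, 632 genes were called higher and 492 lower against R27E. Alternatives were DESeq2, RLE size factors, no filter on low counts, the replicate block, only the groups compared, each library left out in turn, and, added after seeing the data, all libraries numbered 3 left out. Results for some genes are not reported here.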

Additional observations from a re-analysis of the deposited data

Results flagged for a closer look

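The difference between HIF-2α and R27E departed from that between HIF-1α and HIF-1α R30E, by a test of the difference itself in edgeR, for 74 genes above and 110 below. The most different genes above were LHX5 (log2 12.25), SYN3 (9.75), IGFBP5 (6.66) and LY6K (5.65). Below were PTPRN (-7.73), ALDOC (-5.77), SPRY1 (-5.64) and TRPA1 (-4.55). For LHX5, SYN3 and PTPRN some groups were at or near 0 counts, so that the fitted size depends on the prior count. TRPA1, a cation channel, was at 12.6, 2.95 and 9.56 normalized counts with HIF-2α, 36.2, 43.3 and 36.3 with R27E, 118 to 194 with HIF-1α and 24.1 to 31.6 with R30E, so it lay lower in the first pair and higher in the second. LYPD1 went the other way, at 1243 to 1677 and 280 to 538 in the HIF-2α pair and 511 to 659 and 958 to 1429 in the HIF-1α pair. PTPRN was at 316 to 473 with HIF-1α and at most 3.85 in the HIF-2α pair.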

How the results depend on the processing

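Of 133 named genes that were called, 100 kept the call in every alternative and none changed sign. Counts of higher and lower genes against R27E were 667 and 423 with DESeq2, 552 and 318 with RLE size factors, 587 and 435 without the filter, 632 and 492 with the replicate block, and 557 and 406 without the libraries numbered 3. They ran from 383 to 559 and from 257 to 399 without single libraries. Fitting the 6 libraries alone gave 372 and 148. That fit lost 24 of the 133 named calls, among them CA9 (edgeR adjusted p = 0.025). It has fewer libraries to estimate the spread. The same restriction gave 737 and 365 for HIF-2α against HIF-2αDM, in place of 581 and 347. For the HIF-1α pair it gave 328 and 69 in place of 333 and 77. Why the calls against R27E fell was not tested. The block lost none of the 133 named calls.

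Smaller counts moved more. R27E against HIF-2αDM gave 6 genes as reported, 23 with DESeq2, 40 without the filter, 26 with the replicate block, 13 without the libraries numbered 3, 0 in edgeR with only those groups (680 genes at an unadjusted p under 0.05), and 0 to 5 without single libraries. R27E against WT gave 116 as reported, 195, 215, 213 and 5 with DESeq2, no filter, the block and only those groups, and 61 to 120 without single libraries. The difference between the HIF-2α and HIF-1α pairs gave 184 as reported and 365, 374, 454 and 83 in the same order. The cause was not tested. With ACGTG alone the share of promoter windows with a core was 21.4% in place of 48.4%.

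Signs reversed only in genes that were not called: without the libraries numbered 3 PTPRN was at -0.29 and ARNT at -0.11 on the log2 scale, and SPRY1 was at 0.0085 with DESeq2 and 0.011 with RLE. Without single libraries the log2 difference ran from -0.20 to 0.23 for ARNT, -0.58 to 0.025 for PGK1, -0.43 to 0.17 for SPRY1, -0.22 to 0.004 for TRABD2A and -0.075 to 0.28 for COL5A2. By the cutoff of 0.1, replicate numbers did not pair the other comparisons, R27E and HIF-2αDM only narrowly. The lowest same-number correlation was 0.0961 for R27E and HIF-2αDM, -0.1 for the HIF-1α pair and -0.00282 for the second batch. In that batch the block gave 2243 calls in place of 2177. In no comparison did every library correlate best with its own number. Genes near 3 counts are limited by depth, so a level of 0 with R27E bounds the ratio and does not show absence.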

Other observations

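Calls against R27E were spread over the chromosomes. Over protein-coding genes with a mean of at least 50 normalized counts, the median log2 difference lay between -0.222 on chromosome 12 and 0.114 on chromosome 14, and the share of genes called between 4.14% on chromosome 20 and 9.71% on chromosome 21, which held 103 of these genes. DHRS3, a retinaldehyde reductase, was at 4.74, 2.95 and 1.06 normalized counts with HIF-2α, at 40.9, 126 and 97.1 with R27E and at 10.7, 29 and 7.03 in WT, a log2 difference of -4.96 between HIF-2α and R27E (edgeR adjusted p = 0.00051). It was at or near the floor in the second batch, at 2.31 to 8.92 with HIF-2α and 0 to 0.809 in WT. CDKN1C, an inhibitor of the cell cycle, was at 120, 179 and 126 with HIF-2α and at 3.71, 8.67 and 13.7 with R27E (log2 4.01 ± 0.68, edgeR adjusted p = 0.00016), beside cyclin D1, which was also higher. MXI1, an antagonist of MYC, was at 2323 to 2917 against 483 to 614 (log2 2.23 ± 0.17). The 18 proliferation genes held no call in either direction.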
